A study of Drosophila melanogaster with 9 samples.

Results

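The genes *sine oculis* (*so*), *Optix*, *Six4*, *eyes absent* (*eya*) and *dachshund* (*dac*) are 5 of the 13676 genes of the count table and were found in it by their FlyBase gene numbers. They were followed in eye-antennal imaginal discs of wild type *D. melanogaster* (OregonR), a larval epithelium from which compound eye, antenna and head capsule develop. Whole discs were dissected at 72h after egg laying (AEL; late L2, both sexes), at 96h AEL (mid L3, females) and at 120h AEL (late L3, females), with 3 libraries, replicates A, B and C, at each stage. A library was made from a pool of 120 to 130 discs for 72h AEL, of 80 to 90 for 96h AEL and of 40 to 50 for 120h AEL. Sex and stage differ together in every comparison with 72h AEL, and the titles mark the 120h AEL libraries alone as a reanalysis, so a batch behind that word and the stage cannot be told apart.

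*so*, *Optix* and *Six4* encode homeodomain transcription factors of the sine oculis homeobox family. So binds DNA and is activated by Eya, a co-activator that is also a protein phosphatase, and Dac is a nuclear factor of the Ski/Sno family that acts downstream of them in retinal determination. *so*, *eya* and *dac* are required for the eye field and for the start of the morphogenetic furrow, the front of differentiation that sweeps across the eye disc. *Optix* is expressed ahead of the furrow and promotes its progression, whereas *Six4* is known mainly from the mesoderm and the gonad.

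On BDGP6, *so* (FBgn0003460) lies on chromosome 2R from 7419350 to 7434872 on the plus strand, and *Optix* (FBgn0025360) lies on the same arm from 8031283 to 8042529, also on the plus strand, with 596411 bp between them. *Six4* (FBgn0027364) is on 3L from 20788886 to 20792777 on the minus strand. Both *eya* (FBgn0000320), from 6527447 to 6546976, and *dac* (FBgn0005677), from 16466512 to 16485998, are on the minus strand of 2L. Reads had been counted on the longest coding sequence of each gene, which was 1251 bp for *so*, 1479 bp for *Optix*, 1179 bp for *Six4*, 2301 bp for *eya* and 3246 bp for *dac*. Introns and untranslated regions, and differences between the transcripts of 1 gene, are therefore not part of the values. The counting ignored strand, but no coding sequence of the 5 genes overlaps that of another gene.

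Libraries held 17675472 to 37305763 counts. Replicates A and B of 72h AEL were as alike as sampling noise allows (chi-square of 1.02 per gene, against 36.2 to 488 for the other pairs of 1 stage) and were counted once, so that n is 2 for 72h AEL and 3 for each later stage. Replicate C of 72h AEL therefore weighs as much as A and B together. The study reports it as the only library below its quality score at some read position. Part of its reads had an undetermined base there, probably from an air bubble in the sequencer. The counts of a library moved with coding sequence length: the Spearman correlation between length and the deviation from a gene's mean over libraries lay between -0.48 and -0.35 in 72h, between 0.03 and 0.57 in 96h and between 0.06 and 0.46 in 120h AEL libraries. For the long genes *eya* and *dac* in particular, fold changes are given below with this trend removed as well. Expression is in CPM, counts scaled to a common library total with TMM factors, and levels of different genes are compared in CPM per kb of coding sequence.

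The dissected tissue changed between the stages. Over libraries, the 8 genes listed as photoreceptor markers summed to 98.0 to 101 CPM (72h AEL), 259 to 363 CPM (96h AEL) and 736 to 834 CPM (120h AEL). These sums include *mora*, matched by name in place of the photoreceptor gene *chp*, with mean levels of 75.5, 56.3 and 54.7 CPM. Most of the 72h AEL sum was therefore *mora*. The marker *gl* had mean levels of 1.46, 121 and 299 CPM, and *nSyb* had 1.70, 1.77 and 9.06 CPM. The 5 antennal markers summed to 47.5 to 61.4, 118 to 168 and 217 to 250 CPM at these stages. The 10 mesoderm and muscle markers summed to 9136 to 13784 CPM (72h AEL), 1386 to 6419 CPM (96h AEL) and 356 to 648 CPM (120h AEL), with *Act57B*, a muscle actin, the most abundant of them and *Him* under 1 CPM in every library of the first 2 stages. Of the 9 tested between 120h and 72h AEL, the muscle genes *Act57B*, *Mhc*, *Tm2* and *up* were lower and 5 were not called, where 28.9% of all genes tested were lower. The regulator *Mef2* had mean levels of 25.8, 32.9 and 26.3 CPM at 72h, 96h and 120h AEL. Brain and optic lobe markers, tissues in which genes of this group are also used, summed to 24.6 to 40.8, 44.6 to 65.1 and 64.5 to 104 CPM for all 9 genes together. Of the 6 tested between 120h and 72h AEL, 3 were higher and none lower, against 24.0% higher and 28.9% lower among all genes tested. In whole discs, fewer cells of a type and less RNA per cell cannot be told apart, and the part of these shifts in the members' changes was not tested.

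The 5 genes separated into 4 that were well expressed at every stage and *Six4*, which was at the limit of detection. The other 4 genes had 1137 to 20149 counts in a library, which gives a counting error of 0.704% to 2.97%. At 72h AEL, *Optix* had the highest level per length (80.5 ± 11.4 CPM per kb, SD, n = 2), followed by *eya* (55.2 ± 6.5), *so* (54.0 ± 3.3) and *dac* (18.9 ± 5.0). The ranges of *eya* and *so* overlapped, while *Optix* lay above both and *dac* below both in each sample. Levels here and at the later stages still hold the length trend, by which 72h AEL libraries ran low for long coding sequences. Removing it moved the fold of 96h over 72h AEL by a factor of 1.38 for *eya* and 1.66 for *dac*. Orders of genes with the trend removed were not computed.

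At 96h AEL, the order was *eya* (185 ± 36.2 CPM per kb, SD, n = 3), *dac* (153 ± 29.2), *Optix* (128 ± 34.5) and *so* (82.9 ± 14.2). Here the neighbours *eya* and *dac*, and likewise *dac* and *Optix*, overlapped, and only *so* lay apart from the gene above it. By 120h AEL, *eya* (158 ± 7.1 CPM per kb) was apart from the other 3 genes, and *so* (75.3 ± 3.2), *dac* (72.8 ± 16.5) and *Optix* (51.8 ± 6.5) followed with overlapping ranges for each adjoining pair. At their highest stage, *eya* exceeded 92.3%, *dac* 90.5%, *Optix* 88.6% and *so* 82.3% of the 9124 expressed genes in CPM per kb. The plot of levels by library shows the per-stage values on which these orders rest.

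**Figure D1:**
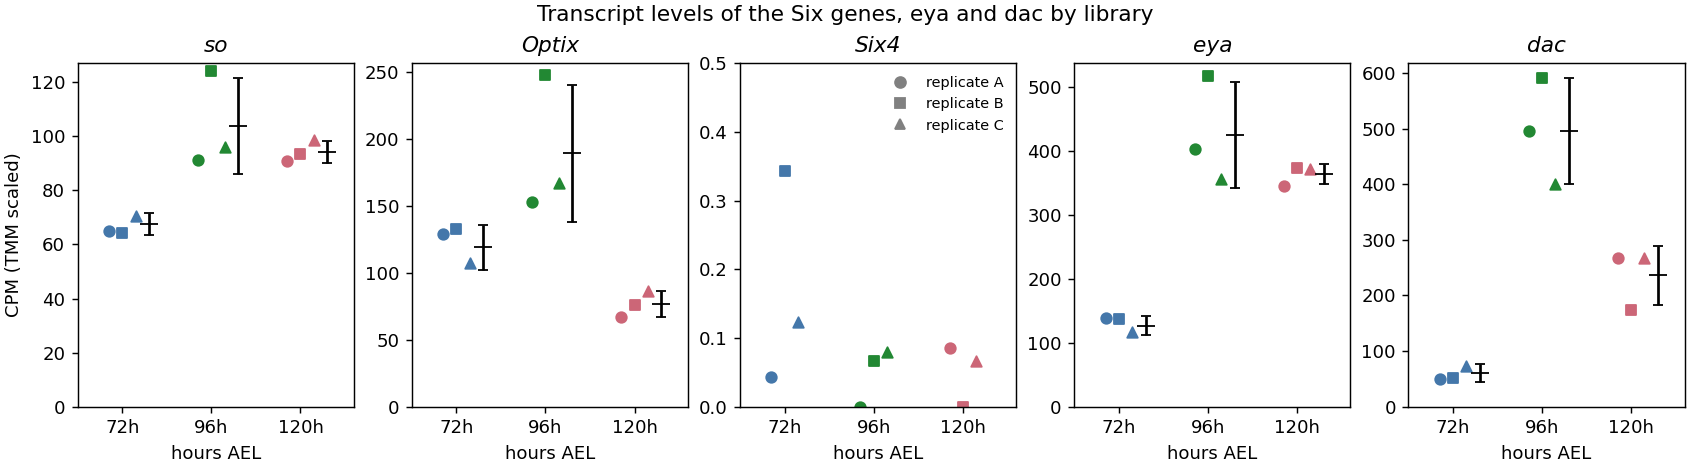
CPM (vertical axis, a separate linear scale from 0 for each gene) of *so*, *Optix*, *Six4*, *eya* and *dac* at 72h, 96h and 120h AEL. Symbols are libraries, and the black bar and whiskers are the mean ± SD, with 72h AEL replicates A and B averaged first; *dac* peaks at 96h AEL with 401 to 590 CPM, and *Six4* stays under 0.35 CPM, where no mean is drawn.

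Of the 5 genes, 4 passed the filter for low expression in each comparison and *Six4* passed in none. A gene is called higher or lower where its p in the two-sided quasi-likelihood test of edgeR was under 0.05 after Benjamini-Hochberg adjustment over all genes of the comparison. From 72h to 96h AEL, *eya* and *dac* were called higher and no member lower, where 19.4% of all 8845 genes tested were higher and 23.0% lower. In the second transition, *Optix* and *dac* were called lower and no member higher, with 6.30% of 8201 genes lower and 8.39% higher. Between 120h and 72h AEL, *so*, *eya* and *dac* were higher and *Optix* was lower, and these calls stand against 24.0% higher and 28.9% lower among 9125 genes (52.9% in either direction). Scaling by library size alone, which moves the median of all genes to 0.44 and 0.58 in the comparisons with 72h AEL, turns 1712 higher and 2035 lower genes at 96h AEL into 3178 and 1272, and 2187 higher and 2641 lower genes at 120h AEL into 4086 and 1668. The samples of the 2 stages did not overlap for 4, 2 and 4 of the 4 members tested in these comparisons, while this held for 72.1%, 33.3% and 74.3% of all genes tested. The comparisons share libraries, so that each is read on its own below.

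*so*, the founding member of its family, had 65.2, 64.2 and 70.5 CPM in replicates A, B and C at 72h AEL, 91.2, 124 and 95.9 CPM at 96h AEL, and 90.7, 93.4 and 98.5 CPM at 120h AEL. All libraries of the later 2 stages lay above those of 72h AEL, and replicate B at 96h AEL was the highest. The log2 fold change of 96h over 72h AEL was 0.57 ± 0.19 (SE), with a 95% interval of 0.09 to 1.04, and missed the threshold with an edgeR adjusted p of 0.0584. That call depended on the method, since *so* was called higher by DESeq2 (adjusted p = 0.0124) and with the length trend removed (edgeR adjusted p = 0.0352).

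Between 120h and 96h AEL, the log2 fold change of *so* was -0.06 with a 95% interval of -0.40 to 0.28 (edgeR adjusted p = 0.803). Over both transitions *so* was 1.37-fold higher at 120h than at 72h AEL (log2 fold change 0.46 ± 0.12, edgeR adjusted p = 0.0290). This call was lost without 72h AEL replicate C (edgeR adjusted p = 0.0782), without 120h AEL replicate A (edgeR adjusted p = 0.0896), without 120h AEL replicate C (edgeR adjusted p = 0.131) and without the filter for low expression (edgeR adjusted p = 0.0561).

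*Optix*, the family member of the field ahead of the furrow, had 129, 133 and 107 CPM at 72h AEL, 153, 248 and 167 CPM at 96h AEL, and 67.2, 76.3 and 86.5 CPM at 120h AEL. Each 120h AEL library lay below every library of the earlier stages, and the 96h AEL libraries were the highest. *Optix* fell 2.34-fold in 120h discs relative to 96h discs (log2 fold change -1.23 ± 0.21, edgeR adjusted p = 0.0109). It kept this call with the replicate letter as a block (edgeR adjusted p = 0.0227) and without each library in turn.

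The difference between 96h and 72h AEL was 0.61 ± 0.27 for *Optix* on the log2 scale, with a 95% interval of -0.06 to 1.29, and was not called by edgeR (adjusted p = 0.113). DESeq2 put it just under the threshold (adjusted p = 0.0499). Relative to 72h AEL, *Optix* was 1.59-fold lower at 120h AEL (log2 fold change -0.66 ± 0.18, edgeR adjusted p = 0.0289). This last call was lost without 120h AEL replicate A, B or C (edgeR adjusted p = 0.101, 0.0568 and 0.0729), and scaling by library size alone left a log2 fold change of -0.06, which is below the median of all genes under that scaling.

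*Six4* had 1, 9 and 3 counts in replicates A, B and C at 72h AEL, 0, 2 and 2 counts at 96h AEL, and 3, 0 and 2 counts at 120h AEL. With a floor of 3 counts per library, it was above the floor in replicate B at 72h AEL only, although replicate A of the same sample held 1 count. Summed over the 3 libraries of a stage, its share was 13 of 94952633 counts at 72h AEL (exact Clopper-Pearson 95% interval 0.0729 to 0.234 CPM of the raw totals), 4 of 88298591 at 96h AEL (0.0123 to 0.116) and 5 of 71478342 at 120h AEL (0.0227 to 0.163). The intervals of the stages overlap and cover counting error only. Overlap of intervals is not a test, and a difference between stages was not tested. Of all genes in the table, 84.7% had more than the 22 counts of *Six4*. Its highest level, 0.291 CPM per kb, compares with a lowest level of 15.2 CPM per kb for the other members, that of *dac* in 72h AEL replicate A. The summed mesoderm and muscle markers were highest at 72h AEL. Of the mesoderm regulators among them, *twi* (6.70, 3.79 and 5.16 CPM at 72h, 96h and 120h AEL) had its highest mean at that stage, and *Mef2*, *htl*, *zfh1* and *Him* had theirs at a later stage. The part of such tissue in the *Six4* counts was not tested.

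*eya* encodes the co-activator and phosphatase that partners So. It had 138, 137 and 117 CPM at 72h AEL, 404, 518 and 356 CPM at 96h AEL, and 346, 374 and 373 CPM at 120h AEL. The 72h AEL libraries lay apart from all others, and those of 96h and 120h AEL overlapped. *eya* rose 3.23-fold in 96h discs relative to 72h discs (log2 fold change 1.69 ± 0.24, edgeR adjusted p = 0.0101), and 2.34-fold with the length trend removed (edgeR adjusted p = 0.0172). Without 96h AEL replicate B, where *eya* was highest, the call just missed the threshold (log2 fold change 1.56, edgeR adjusted p = 0.0508).

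In the second transition the log2 fold change of *eya* was -0.15, with a 95% interval of -0.54 to 0.24 (edgeR adjusted p = 0.598). At 120h AEL it remained 2.81-fold higher than at 72h AEL (log2 fold change 1.49 ± 0.18, edgeR adjusted p = 0.00298). This call held without each library in turn.

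*dac* had the widest range of the 5 genes. It had 49.3, 50.8 and 72.9 CPM at 72h AEL, 495, 590 and 401 CPM at 96h AEL, and 268, 175 and 267 CPM at 120h AEL. The 3 stages did not overlap, with 96h AEL at the top and 72h AEL at the bottom. *dac* rose 7.77-fold in 96h discs relative to 72h discs (log2 fold change 2.96 ± 0.29, edgeR adjusted p = 0.00439). With the length trend removed this was 4.69-fold (log2 fold change 2.23 ± 0.19, edgeR adjusted p = 0.00310). The median log2 fold change of all tested genes with coding sequences of 2200 to 3400 bp, the class that holds *eya* and *dac*, was 0.58, against -0.10 for those of 1100 to 1600 bp, the class of *so* and *Optix*.

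Levels of *dac* at 120h AEL were 1.99-fold lower than at 96h AEL (log2 fold change -0.99 ± 0.22, edgeR adjusted p = 0.0297). With the replicate letter as a block, whose basis is given under processing, the value was -1.0002 ± 0.26 and was no longer called (edgeR adjusted p = 0.0839). The call was also lost without 96h AEL replicate A or B or 120h AEL replicate A or C (edgeR adjusted p = 0.0757, 0.111, 0.0610 and 0.0852), where the log2 fold change lay between -1.10 and -0.88. Compared with 72h AEL, *dac* was 3.79-fold higher at 120h AEL (log2 fold change 1.92 ± 0.29, edgeR adjusted p = 0.00556), or 2.40-fold with the length trend removed. Beside it, the summed antennal markers, a tissue in which *dac* is also expressed, were higher at each later stage, as given above, and their part in the change of *dac* was not tested.

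**Figure D2:**
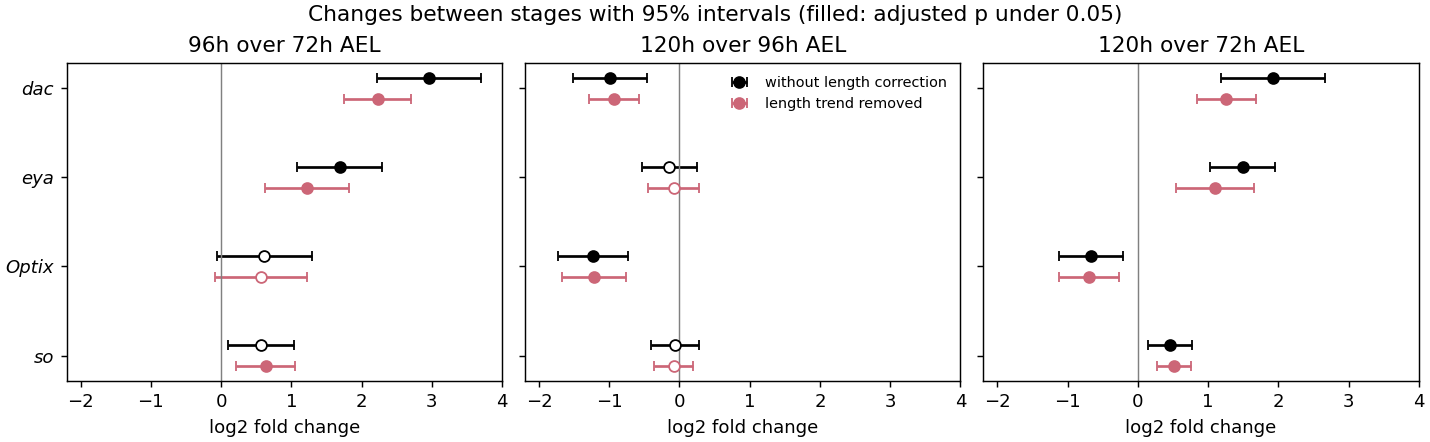
Log2 fold changes (horizontal axis) of *dac*, *eya*, *Optix* and *so* for 96h over 72h, 120h over 96h and 120h over 72h AEL. Points are edgeR estimates with 95% intervals, black without and red with removal of the length trend, and filled points have an adjusted p under 0.05; removing the trend lowers *dac* and *eya* in both comparisons with 72h AEL, and the filled points of *Optix* in the middle and right panels lie below 0.

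The 2 successive changes were tested against each other in 1 fit over all stages. The change from 96h to 120h AEL was lower than that from 72h to 96h AEL by a log2 difference of -3.90 ± 0.42 for *dac* (edgeR adjusted p = 0.00344), of -1.79 ± 0.36 for *Optix* (edgeR adjusted p = 0.0249) and of -1.78 ± 0.30 for *eya* (edgeR adjusted p = 0.0146). With the length trend removed, the difference was -3.16 for *dac* and -1.30 for *eya*. For *so* it was -0.58 ± 0.23 and was not called (edgeR adjusted p = 0.113). Over all 9124 genes tested, 7.20% had a difference called in this direction and 8.15% in the other (15.4% in all). The call of *dac* held without each library in turn, whereas that of *Optix* was lost without 96h AEL replicate B or 120h AEL replicate A or C (edgeR adjusted p = 0.0950, 0.0612 and 0.0608) and that of *eya* without 96h AEL replicate B or 120h AEL replicate C (edgeR adjusted p = 0.0729 and 0.0504).

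Because So, Eya and Dac act in shared complexes and circuits, the proportions of their transcripts were compared within libraries, where the scaling of libraries cancels. The 6 ratios were compared over 3 pairs of stages, 18 comparisons in all, with an exact permutation test over samples (two-sided). With 2 or 3 samples a stage this test cannot give a p below 0.1, and the smallest value adjusted over the 18 comparisons was 0.129. Ratios are therefore described by their values and by the overlap of the samples. How often ratios of other expressed genes did not overlap was not computed. For levels of single genes, samples did not overlap for 72.1% (72h to 96h AEL), 33.3% (96h to 120h AEL) and 74.3% (72h to 120h AEL) of genes tested. Lack of overlap in a ratio is thus not shown to be particular to these pairs.

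The ratio of *eya* to *so* per kb had geometric means of 1.02, 2.23 and 2.10 at 72h, 96h and 120h AEL. The 96h AEL samples lay above the 72h AEL samples without overlap (exact permutation p = 0.1), and those of 120h and 96h AEL overlapped (exact permutation p = 0.4). Transcripts of the phosphatase stood near those of its DNA-binding partner in late L2 discs and exceeded them in every L3 library. The log2 ratio differed between 96h and 72h AEL by 1.13, or by 0.61 with the length trend removed.

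*dac* to *so* had geometric means of 0.345, 1.84 and 0.949 at the 3 stages, with no overlap between any of them (exact permutation p = 0.1 in each pair). The 96h minus 72h AEL difference in this log2 ratio was 2.41, or 1.61 with the length trend removed, and the 120h minus 72h AEL difference was 1.46, or 0.74. *dac* to *eya* was 0.338, 0.825 and 0.451. Here the 96h AEL samples lay above those of both other stages, which overlapped with each other.

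*Optix* to *so* was 1.48, 1.52 and 0.685, so that *Optix* exceeded *so* in each library of the first 2 stages and lay below it in each library of the last. The 72h and 96h AEL samples overlapped, and the 120h AEL samples lay below both (exact permutation p = 0.1 for each). *eya* to *Optix* was 0.687, 1.46 and 3.07, without overlap between any pair of stages (exact permutation p = 0.1 in each). The log2 difference of this ratio was 1.09 for 96h minus 72h AEL, or 0.69 with the length trend removed. For 120h minus 96h AEL it was 1.07, or 1.12 with that trend removed. Finally, *dac* to *Optix* was 0.232, 1.21 and 1.39, and only the 72h AEL samples lay apart. The log2 difference from 72h AEL was 2.37 at 96h AEL and 2.58 at 120h AEL, or 1.69 and 1.95 with the length trend removed.

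**Figure D3:**
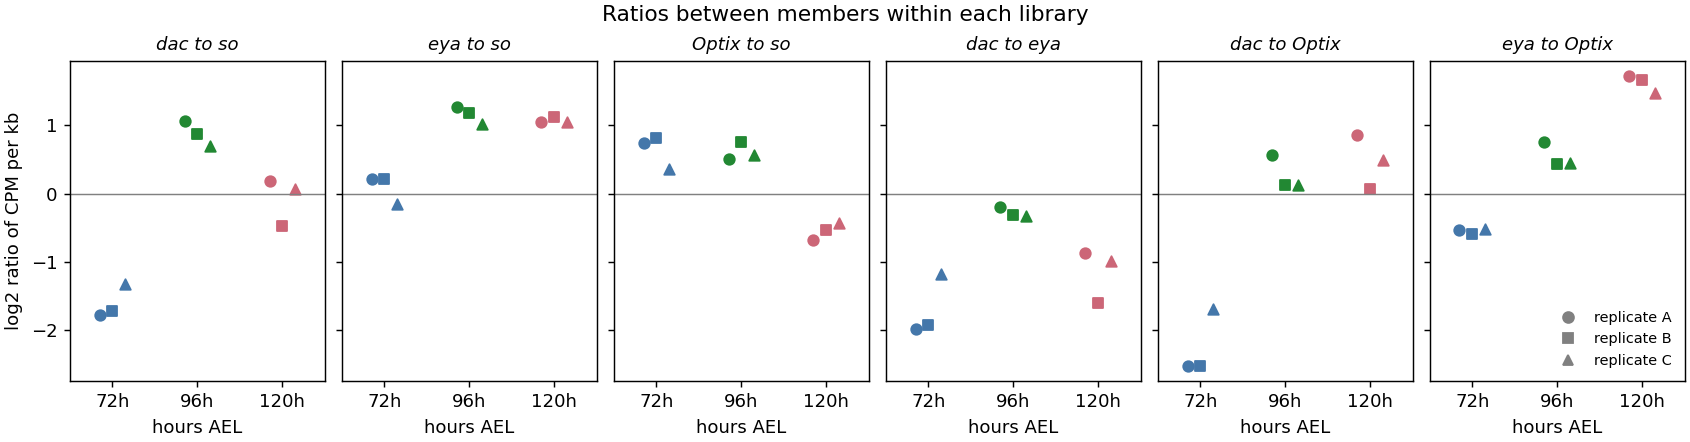
Log2 ratio of CPM per kb (vertical axis, shared) between members within each library at 72h, 96h and 120h AEL, with a symbol for each replicate and a line at equal levels. *eya* to *Optix* is higher at each later stage without overlap, and *Optix* to *so* lies above the line in all 72h and 96h AEL libraries and below it in all 120h AEL libraries.

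No 2 members share a cluster among the 13 into which the authors had grouped genes by their time course on these samples. *so* was in cluster 7, *Optix* in 8, *dac* in 9 and *eya* in 10, and *Six4* was in none. Across the 8 independent samples, log2 CPM of *so* and *eya* had a Pearson r of 0.93, as *eya* and *dac* had (0.92), and *so* and *dac* had 0.90. *Optix* had 0.33 with *so*, 0.18 with *eya* and 0.37 with *dac*. The contrast was smaller by rank: Spearman's rho was 0.76 for *so* and *eya*, 0.76 for *eya* and *dac* and 0.69 for *so* and *dac*. For *Optix* it was 0.36 with *so*, 0.38 with *eya* and 0.52 with *dac*. These 8 points share stages, depth and the length trend, and the correlations are given as a description.

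Among 7439 genes with a mean of at least 10 CPM, the genes most like each member over these 8 samples were picked by the same r. For *so* they were *Regnase-1*, an RNase gene (r = 0.99), *Kcmf1*, a ubiquitin ligase gene (0.97), and *Non2* (0.97). Those of *Optix* were *CG18507* (0.98), *caupolican* (*caup*), a homeobox gene of the Iroquois complex (0.97), and *CG11788* (0.96). *caup* had mean levels of 39.5, 60.9 and 33.6 CPM at the 3 stages.

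*eya* was matched by *MYPT-75D*, which encodes a subunit of myosin phosphatase (0.99), by *su(w[a])*, a splicing regulator gene (0.98), and by *Dlish* of the Fat pathway (0.98). *dac* was matched by the augmin gene *dgt5* (0.998), the insulator protein gene *CTCF* (0.99) and *mxc*, a gene of the histone locus body (0.99). The match concerns shape and not size, since *dgt5* had 29.5, 49.6 and 42.0 CPM, a narrower range than that of *dac*. All 12 genes had r of at least 0.96.

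The genes that act above, beside and below the members were described from lists of textbook regulators. Of the 10 upstream eye selectors, among them the Pax6 genes *eyeless* (*ey*) and *twin of eyeless* (*toy*), 7 were higher and none lower in 96h than in 72h discs, where 19.4% of all genes tested were higher and 23.0% lower, with a median log2 fold change of 1.17 against -0.04 for all genes. The 7 were *toy* (1.11), *teashirt* (*tsh*, 1.06) and its paralog *tio* (1.88), the homeobox genes *hth* (1.76) and *exd* (1.24), and the pipsqueak-family genes *dan* (3.75) and *danr* (3.89). Of these, *dan* is also on the list of established targets below. Whole discs include the antenna, and its part in these rises was not tested. With the length trend removed 6 were called, as *tsh* lost its call. In the second transition *hth* (0.84, edgeR adjusted p = 0.0164) and *eyegone* (*eyg*, 0.75, edgeR adjusted p = 0.0497) rose and *ey* fell (-0.9996, edgeR adjusted p = 0.0145). These 3 calls held with the length trend removed, where *tsh* (-0.54, edgeR adjusted p = 0.0155) and *tio* (-0.51, edgeR adjusted p = 0.0189) were called lower as well. For *ey*, which is both an activator and a target of *so*, mean levels were 175, 276 and 130 CPM at the 3 stages, beside 119, 189 and 76.7 CPM for *Optix*. The 96h over 72h AEL value of *ey* was 0.60 (edgeR adjusted p = 0.0917), but -0.01 with the length trend removed, where *Optix* kept 0.57. For 120h over 72h AEL, *ey* had -0.45 (edgeR adjusted p = 0.0493), -0.97 with the length trend removed and 0.14 with scaling by library size alone.

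Partners and modifiers were represented by 5 genes. All 5 were higher in 96h than in 72h discs, against 19.4% of all genes. They are the co-repressor genes *gro* (log2 fold change 1.13) and *CtBP* (1.01), the kinase genes *nmo* (2.02) and *Hipk* (2.87), and *Abl* (2.06), whose kinase acts on Eya. All 5 stayed called with the length trend removed, where the median log2 fold change of the list was 1.02 rather than 2.02 and the values were 0.74 for *gro*, 0.98 for *CtBP*, 2.06 for *nmo*, 2.02 for *Hipk* and 1.02 for *Abl*. Of the 5, *Abl* was called higher again in 120h relative to 96h discs (0.95 ± 0.19, edgeR adjusted p = 0.0217), with mean levels of 15.5, 66.9 and 122 CPM. Of the relatives of Dac in the Ski/Sno family, *Snoo* was called higher between 120h and 72h AEL (2.25 ± 0.63, edgeR adjusted p = 0.0322) but in neither successive comparison, and *fuss* was called in no comparison.

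Established targets of So or Eya were 7 genes, and 6 of them were higher and none lower in 96h than in 72h discs, against 19.4% higher among all genes. *lozenge* (*lz*), a Runx gene of the cells behind the furrow, had 737, 888 and 755 counts at 96h AEL against 10, 11 and 30 counts at 72h AEL, a log2 fold change of 4.96 ± 0.62 (edgeR adjusted p = 0.00768). The homeobox gene *rough* (*ro*) had 3.86, the proneural gene *atonal* (*ato*) 2.22, the mitotic phosphatase gene *string* (*stg*) 1.66 and the signal gene *hedgehog* (*hh*) 1.62, and *dan* is given above. In 120h relative to 96h discs *lz* (1.56, edgeR adjusted p = 0.00644) and *hh* (0.72, edgeR adjusted p = 0.00699) rose further and *ey* fell. *lz* and *ro* belong to the photoreceptor field behind the furrow. The sum of the genes listed as its markers was higher at each later stage, with the limits given above. The part of those cells in these changes was not tested.

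Furrow signals, which act with the members in the eye field, were 5 genes. All were higher in 96h than in 72h discs, against 19.4% of all genes: *hh*, its receptor gene *patched* (*ptc*, 1.49), the effector gene *ci* (1.06), the BMP ligand gene *dpp* (1.06) and *hairy* (*hry*, 1.43), with *ci* losing its call when the length trend was removed. In the second transition *hh* rose and *dpp* fell (-0.81 ± 0.15, edgeR adjusted p = 0.0162), beside the fall of *Optix*. With the length trend removed *hry* was called lower there as well (-0.69, edgeR adjusted p = 0.0260).

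**Figure D4:**
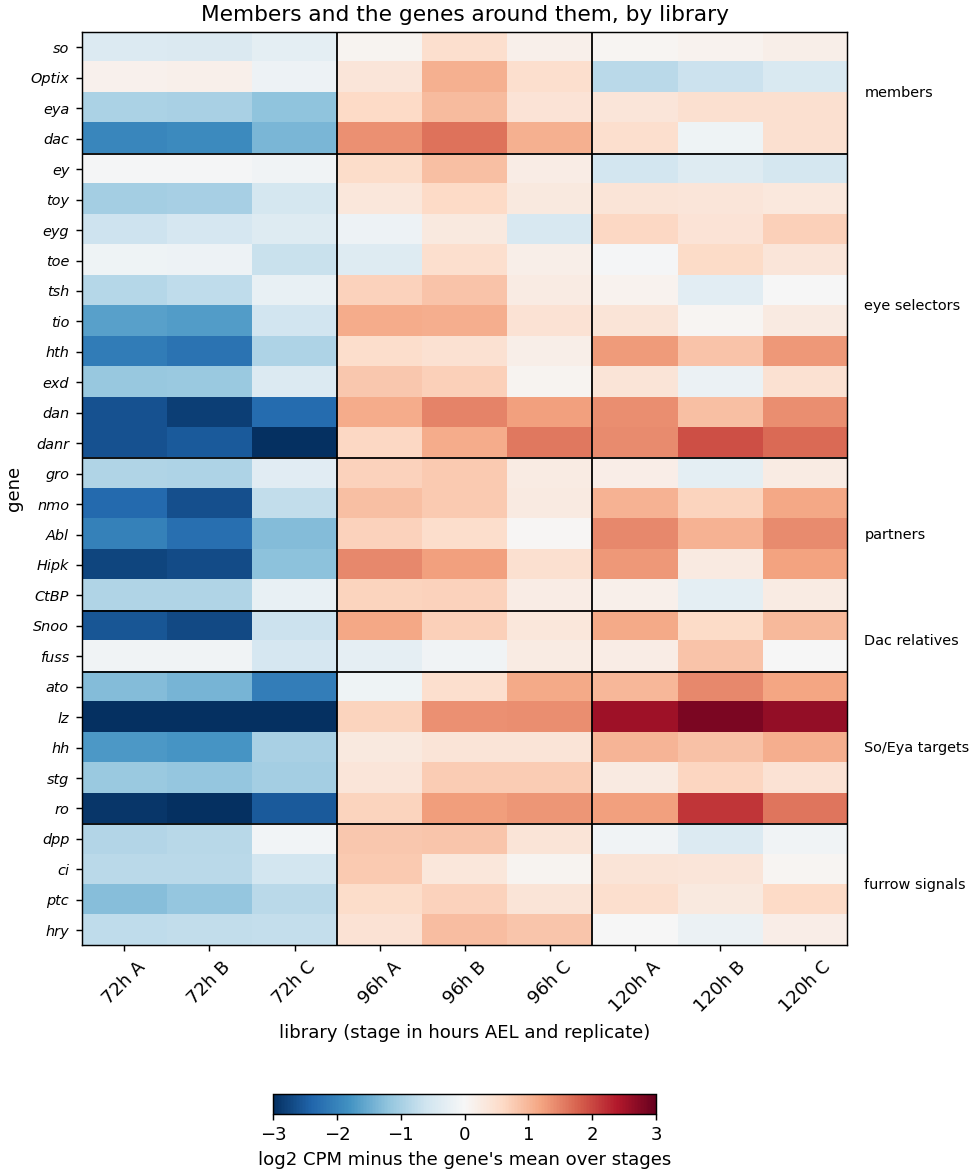
Log2 CPM minus the gene's mean over the 3 stages (colour, capped at 3 in either direction) for the 4 expressed members and the genes of the lists (rows) in the 9 libraries (columns). *dac*, *dan*, *danr*, *lz* and *ro* are low in all 72h AEL libraries, and *Optix* and *ey* are low in all 120h AEL libraries; a gene on several lists is drawn once.

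A longer list of 112 putative So/Eya targets had been taken by the study from an earlier publication. It holds *so* and *eya* themselves. Of the 104 other genes found in the table, 73 passed the filter from 72h to 96h AEL, and 17 of these were higher and 20 lower in 96h discs, 50.7% called against 42.4% of all genes in either direction. Their median log2 fold change was -1.01, against -0.04 for all genes. The balance of directions moved with the scaling, with 12 higher and 27 lower when the length trend was removed and 20 higher and 17 lower with library size only. Between 120h and 96h AEL 65 passed, with 3 higher and 9 lower, 18.5% called against 14.7%, and 7 were higher and 11 lower with the length trend removed. Between 120h and 72h AEL 74 passed, with 22 higher and 37 lower, 79.7% called against 52.9%. Genes that did not pass are left out of these shares.

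Among the called genes of this list, the largest rises from 72h to 96h AEL were those of *ro*, *dan* and *E(spl)mdelta-HLH*, a Notch target gene (3.67 ± 0.44, edgeR adjusted p = 0.00686). The largest falls among called genes were those of *CG15615*, with 8, 11 and 4 counts at 96h AEL against 4275, 4791 and 1849 at 72h AEL (-9.11 ± 0.59, edgeR adjusted p = 0.00191), of *CG4115* (-4.56 ± 0.23, edgeR adjusted p = 0.00127) and of the antimicrobial peptide gene *AttA* (-3.59 ± 0.86, edgeR adjusted p = 0.0292). The list holds genes of different kinds. Fat body markers, a tissue known for *AttA*, summed to 3182 to 4387 CPM (72h AEL), 1799 to 6575 CPM (96h AEL) and 132 to 4691 CPM (120h AEL) over 6 genes, and hemocyte markers to 300 to 1267, 70.8 to 313 and 182 to 1074 CPM over 5 genes. The part of these tissues was not tested.

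Of the genes called in each of the successive comparisons, which share the 96h AEL libraries, *hh* is described above. Lower at each later stage were the desaturase gene *CG9743*, with log2 fold changes of -3.32 (96h over 72h AEL) and -2.21 (120h over 96h AEL), and the transporter gene *MFS9*, with -2.10 and -1.68. Their mean levels at 72h, 96h and 120h AEL were 109, 11.2 and 2.31 CPM for *CG9743* and 66.6, 16.2 and 4.80 CPM for *MFS9*.

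**Figure D5:**
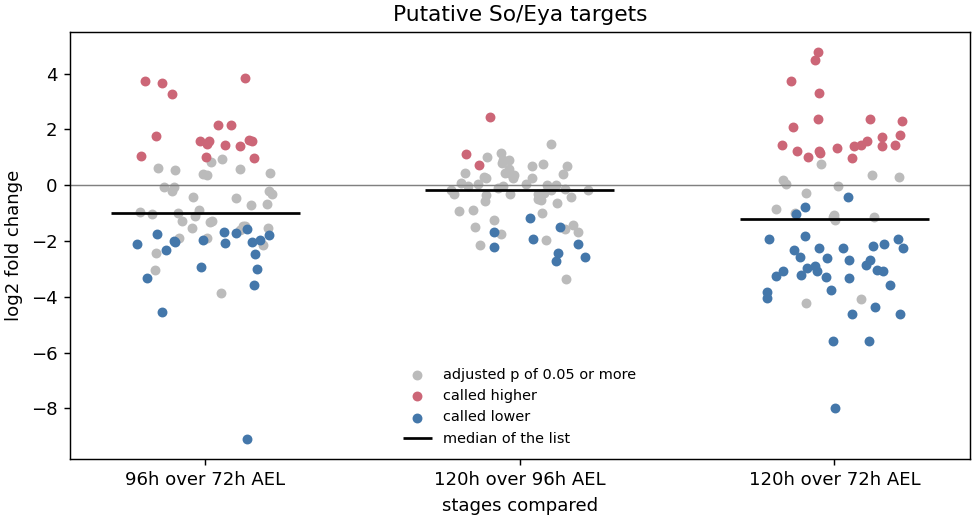
Log2 fold changes (vertical axis) of the putative So/Eya targets that passed the filter in each comparison (73, 65 and 74 genes from left to right). Each point is a gene, spread sideways at random, coloured by its edgeR call, and the black line is the list's median (-1.01, -0.17 and -1.20).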

How the data were processed

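RNA of eye-antennal discs was sequenced in 9 libraries as 50 bp single-end reads. The deposited values are raw counts: the authors aligned untrimmed reads with Bowtie2 to 1 coding sequence per gene, the longest of FlyBase r5.55, and counted them with SAMtools 0.1.19 idxstats, without strand or normalization. The authors' cluster numbers were used as labels. Gene names and positions came from BDGP6, whose coding lengths equal those in the table for the 5 genes.

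Groups followed the sample titles. For means at 72h AEL, A and B were averaged before averaging with C, and they were summed for the fits. Counts were TMM-scaled, genes under a threshold chosen as in HTSFilter (147.7, 133.7 and 125.6 normalized counts) were left out, and each pair of stages was fitted with edgeR 4.0.16 (quasi-likelihood, Benjamini-Hochberg). SE was derived from the log2 fold change and its F statistic. R 4.3.3, DESeq2 1.42.0, Python 3.11.15, scipy 1.17.1 and matplotlib 3.10.9 were used, and the fits were checked on simulated counts. Floors (3 counts) and the exact intervals of *Six4* cover counting error only. Intervals of log2 fold changes were built from this SE and include the spread between samples. The length trend was a loess fit (span 0.5) per library, used as an offset.

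Same-letter libraries of 96h and 120h AEL had weakly positive correlations of their deviations (0.17, 0.13 and 0.12 for A, B and C). That is the only basis of the replicate block, as the labels give no pairing by letter. The study calls the replicates biological and reared larvae at controlled density, but the sources used here do not say whether replicates came from separate cultures, so p-values measure the spread between these samples. Named genes are the 5 members, the genes of the lists, the 3 most alike per member, their neighbours, and the putative targets called in both transitions (1 of them is not reported here) or with the 3 largest rises or falls. The members and lists were chosen with earlier results of these data known. Alternatives were DESeq2, other scalings and filters, all stages in 1 fit, A and B kept apart, the replicate block, the length trend, prior count 2, thresholds of 0.01 and 0.1, and each library left out. The genes *rl*, *wg*, *chp*, *phm* and *spok* and 6 of the 112 putative targets were not analysed here.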

Additional observations from a re-analysis of the deposited data

Results flagged for a closer look

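For 3 genes the change in the second transition differed from that in the first by the test of the difference. The log2 change from 96h to 120h AEL minus that from 72h to 96h AEL was -3.90 for *dac* (-3.16 with the coding sequence length trend removed), whose rise in the first transition was followed by lower levels. It was -1.79 for *Optix*, which was called in the second transition only. It was -1.78 for *eya* (-1.30 with that trend removed), which was called in the first transition only.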

How the results depend on the processing

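Of 276 alternative values of the members' log2 fold changes, 248 kept their side of the threshold, 28 crossed it and no called value changed sign. The uncalled value of *so* from 96h to 120h AEL was above 0 without 96h AEL replicate B (0.051). From 72h to 96h AEL, *so* gained its call under DESeq2 (0.58), library size only (1.04), all stages in 1 fit (0.52), A and B as separate samples (0.60), the length trend removed (0.64) and the length trend with the replicate block (0.67), and *Optix* gained it under DESeq2 (0.63) and library size only (1.11). This gave 4 members called higher under DESeq2 and under library size only, 1 at a threshold of 0.01, and 1 to 2 without 1 library. With the replicate block, which treated same-lettered libraries of 96h and 120h AEL as pairs, *dac* lost its call in the second transition (-1.0002) and 1 member was called lower. No other member's call there changed with the block. In the comparisons with 72h AEL, same-lettered libraries did not all deviate together (correlations -0.42, 0.18 and -0.31 with 96h AEL, and -0.16, 0.18 and 0.13 with 120h AEL). There the block left 2 members called higher from 72h to 96h AEL. At a threshold of 0.01, 0 members were lower in either the second transition or between 120h and 72h AEL. Over both transitions, *so* lost its call without the filter (0.45) and *Optix* under library size only (-0.062, 0 members lower), and the difference of successive changes of *so* gained a call under library size only (-1.04). With 1 library left out, log2 fold changes were 1.55 to 1.83 for *eya* (72h to 96h AEL), -1.10 to -0.82 for *dac* (96h to 120h AEL, 1 to 2 members lower), 0.44 to 0.49 for *so* and -0.85 to -0.58 for *Optix* (72h to 120h AEL, 0 to 1 members lower), and the difference of successive changes was -2.05 to -1.35 for *Optix* and -1.98 to -1.49 for *eya* (1 to 3 members called). Without replicate C, 72h AEL rests on 1 sample, assumed to vary like the others. Of the putative targets, 7 were higher from 96h to 120h AEL with the length trend removed, against 3. Over all genes, DESeq2 called 935 higher and 938 lower from 96h to 120h AEL and the fit with the length trend removed 859 and 862, against 688 and 517. Levels moved by more than the spread in 12 of 87 cases and ratios in 8 of 126. The cause of these shifts was not tested. Depth limits *Six4* alone among the members.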

Other observations

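The genes next to the members on the chromosome were followed as well. Beside *so*, *CG11123* (5834 bp away) was lower at 120h than at 72h AEL (log2 fold change -0.55 ± 0.12, edgeR adjusted p = 0.0170), where *so* was higher, and *CG1701* was not tested. *CG11145*, which lies within *so* on the opposite strand, had 0 to 13 counts in a library. Beside *Optix*, *CG14762* (17528 bp away) was called higher at 120h than at 96h AEL (2.08 ± 0.40, edgeR adjusted p = 0.0175). Its mean levels were low, at 1.71, 1.25 and 5.03 CPM at 72h, 96h and 120h AEL. It passed the filter only in the comparisons with 120h AEL, the stage where it was highest, so this call is not set against the change of *Optix*. Beside *dac*, the imaginal disc growth factor gene *Idgf3* (11318 bp away) was lower at 96h than at 72h AEL (-2.26 ± 0.34, edgeR adjusted p = 0.0118), with 40.0 CPM at 96h AEL against 185 CPM at 72h AEL. The nearest gene to *eya*, *CG31637* (451 bp away), was called in no comparison (log2 fold change 0.45 of 96h over 72h AEL, edgeR adjusted p = 0.256), and neither was *CG11396* (749 bp from *Six4*), at 38.4, 33.4 and 43.0 CPM at the 3 stages. The 4 remaining neighbours, *CG12769*, *CG3698*, *IFT52* and *Nepl8*, did not pass the filter.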
